A study of Mus musculus with 12 samples.

Results

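Adding an antibody against PD-L1 to the combination labelled PLX+PTX was examined in mammary tumours of MMTV-PyMT mice, by setting the 2 libraries of the PLX+PTX+aPD-L1 group against the 2 libraries of the PLX+PTX group. These are 4 of the 12 libraries of the series, and all 750 endogenous probes of an nCounter mouse immuno-oncology panel were read in each. The tumours of both groups had the genotype MMTV-PyMT, in which the promoter of the mouse mammary tumour virus drives polyoma middle T antigen in the mammary epithelium, and both groups had received PLX and PTX. The labels do not spell out PLX and PTX; the series title speaks of CSF1R inhibition plus chemotherapy. They give no age, dose or time. The groups not compared here enter only as the other 8 libraries: PTX alone (2), and PLX+PTX with an antibody against PD-1, in groups with the suffixes R (3) and NR (3), which the labels do not explain.

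PD-L1 is a membrane protein of tumour and myeloid cells that binds PD-1 on activated T cells and damps their signalling. An antibody that blocks PD-L1 leaves PD-1 without this ligand, and interferon-induced genes and genes of cytotoxic lymphocytes are commonly read out in tumours under such treatment. CSF1R is the receptor through which the cytokine CSF1 keeps macrophages alive, so macrophages are the cells that a CSF1R inhibitor is known to act on.

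The PLX+PTX+aPD-L1 libraries held 141021 and 98741 endogenous counts, against 342694 and 328325 in PLX+PTX, and the other 8 libraries held 128083 to 531086. The geometric mean of the 20 housekeeping probes was 189 and 86.6 counts in PLX+PTX+aPD-L1, against 264 and 288 in PLX+PTX. The spiked positive controls were close in all 4 libraries, at 1369 and 1083 counts against 1319 and 1225. The low signal of the PLX+PTX+aPD-L1 libraries thus lay in the tumour RNA probes and not in the positive controls. Each library was divided by its housekeeping signal, and the resulting values are called normalised counts. The detection limit of a library, set at 2 SD over the mean of the negative-control probes, was 32.5 and 22.7 raw counts in PLX+PTX+aPD-L1, against 30.1 and 20.3 in PLX+PTX. On the normalised scale these limits became 43.1 and 65.5, against 28.6 and 17.7. A probe that measures only background therefore takes a higher normalised count in PLX+PTX+aPD-L1 than in PLX+PTX. The epithelial adhesion gene Epcam had 5049 and 5083 normalised counts in PLX+PTX+aPD-L1, against 6581 and 6229.8 in PLX+PTX, so epithelial cells were present in all 4 tumour pieces.

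The probes fell into classes by this limit. Of the 750, 357 lay above the limit in all 4 libraries, 9 in both PLX+PTX+aPD-L1 libraries and neither PLX+PTX library, 42 in both PLX+PTX libraries and neither PLX+PTX+aPD-L1 library, and 191 in none of the 4. Of the 615 probes tested, the 357 above the limit in all 4 had a median log2 fold change of −0.14, PLX+PTX+aPD-L1 over PLX+PTX. The 57 tested probes above it in none had a median of 0.66, with 52 of them above 0. Over all 615 the median was −0.02, with 302 above 0 and 313 below. The negative controls themselves, normalised in the same way, averaged 21.9 and 32.5 in PLX+PTX+aPD-L1, against 16.5 and 13.1 in PLX+PTX.

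**Figure D1:**
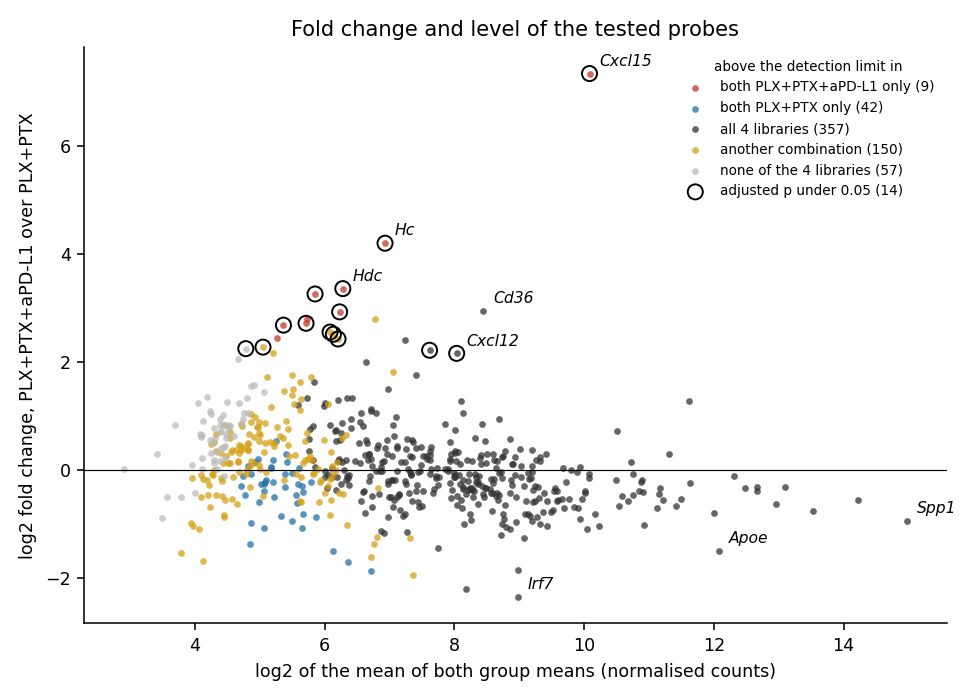
Log2 fold change of each of the 615 tested probes (vertical axis) against the log2 of the mean of both group means in normalised counts (horizontal axis), coloured by the libraries in which the probe lay above the detection limit, with circles around the 14 probes past the threshold. Probes above the limit in none of the 4 libraries lie mostly above 0, and Cxcl15 stands highest at 7.34.

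By edgeR's quasi-likelihood test with Benjamini-Hochberg adjustment, 14 of 615 genes (2.28%) rose in PLX+PTX+aPD-L1 and 0 (0%) fell, with 65 higher (10.6%) and 34 lower (5.53%) at an unadjusted p under 0.05. The 14 were few beside the 142 genes (23.1%) with both PLX+PTX+aPD-L1 libraries above both PLX+PTX libraries in normalised counts, and the 131 (21.3%) with both below. All 14 were also among the 53 (8.62%) that were higher in both PLX+PTX+aPD-L1 libraries than in each of the other 10 libraries. In all 14 the raw counts alone separated the groups as well, the lower PLX+PTX+aPD-L1 count lying above the higher PLX+PTX count, although the PLX+PTX+aPD-L1 libraries held fewer counts in all. That held for 29 of the 615 tested genes (4.72%). In 9 of the 14 the raw counts of both PLX+PTX+aPD-L1 libraries also exceeded those of each of the other 10 libraries. The 14 included secreted chemokines and complement proteins, molecules of lymphocytes, and regulators of development and metabolism.

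The count of 14 rested on both PLX+PTX libraries: it was 3 (Sox2, Tymp and Zap70) without PLX+PTX replicate 1, and 0 without PLX+PTX replicate 2, with 71 genes at an unadjusted p under 0.05. Without PLX+PTX+aPD-L1 replicate 1, Cd2, Cxcl12 and Il6ra were lost, and without its replicate 2, C2, Cd2, Cxcl15 and Il6ra. The labels do not state whether the tumours of a group were taken from separate animals. The p-values therefore measure the spread between these libraries, which may in part be technical.

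Chemokine genes gave the largest rise. Cxcl15, which encodes a neutrophil-attracting chemokine of mouse epithelia such as that of the lung, gave 639 and 1199 raw counts in the PLX+PTX+aPD-L1 libraries, against 14 and 15 in the PLX+PTX libraries. The groups lay far apart, and both PLX+PTX values were under the detection limit. Normalised, these were 848 and 3464, against 13.3 and 13.1, and the other 8 libraries ran from 8.45 through a median of 15.8 to 265, the highest in R replicate 1. The fitted log2 fold change was 7.34 (SE 1.41, edgeR adjusted p = 0.0124). Without PLX+PTX+aPD-L1 replicate 2 it was 5.997 and missed the threshold (edgeR adjusted p = 0.0543), and DESeq2 gave Cxcl15 no adjusted p. Since PLX+PTX gave only a bound, Cxcl15 was 76.2-fold higher when each PLX+PTX library was taken at its detection limit. Folds of this kind leave the PLX+PTX+aPD-L1 values as measured, although their normalised limits were higher, so they are not lower bounds. The log2 fold change was 4.71 with all values raised to the highest normalised limit of both groups. Cxcl15 took 0.453% of the endogenous counts in PLX+PTX+aPD-L1 replicate 1 (Wilson 95% interval 0.419% to 0.490%) and 1.21% in replicate 2 (1.15% to 1.28%). In PLX+PTX it took 0.00409% (0.00243% to 0.00686%) and 0.00457% (0.00277% to 0.00754%). These intervals cover counting error only, since the targets were amplified before counting.

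Cxcl12, the stromal chemokine that retains and attracts CXCR4-bearing leukocytes, had 465 and 393 normalised counts in PLX+PTX+aPD-L1, against 84.5 and 108 in PLX+PTX. It lay above the limit in all 12 libraries, and both PLX+PTX+aPD-L1 values exceeded the highest of the other 8, which was 143. Its log2 fold change was 2.16 (SE 0.40, edgeR adjusted p = 0.0107). Of 27 chemokine ligand genes tested, Cxcl15 and Cxcl12 were the members that rose, beside 2.28% of all tested genes. Of the 27, 14 lay above 0 and 13 below, and the median was 0.01, close to that of all probes. Ccl21a, a chemokine that draws T cells and dendritic cells into lymphoid tissue, had 146 and 269 normalised counts in PLX+PTX+aPD-L1, against 22.8 and 94.0 in PLX+PTX (log2 fold change 1.81, SE 0.91), which did not pass the test.

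The monocyte-attracting chemokine gene Ccl12 pointed the other way. It had 35.8 and 37.6 normalised counts in PLX+PTX+aPD-L1, under the limit in both, against 92.1 and 115 in PLX+PTX, and 47.9 to 94.7 in the other 8 libraries. Both PLX+PTX+aPD-L1 values were thus lower than in each of the other 10 libraries, a pattern shared by 27 tested genes (4.39%). Its log2 fold change was −1.50 (SE 0.37) with an edgeR adjusted p of 0.0614. Ccl8, another monocyte attractant, had 43.8 and 60.7 against 72.2 and 242 (−1.61, SE 0.66) and is named after its values were seen.

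Complement genes went both ways. Hc, which encodes C5, the source of the C5a peptide, gave 60 and 133 raw counts in PLX+PTX+aPD-L1, against 14 and 13 in PLX+PTX. Normalised, it stood at 79.6 and 384, against 13.3 and 11.3 (log2 fold change 4.20, SE 0.64, edgeR adjusted p = 0.00369). Hc was above the limit in none of the other 8 libraries. It was 7.77-fold higher with PLX+PTX taken at its limits, and its log2 fold change was 1.42 with all values raised to the highest limit. C2, a protease component of the classical pathway, had 54.4 and 196 normalised counts, against 17.1 and 27.9, with a log2 fold change of 2.42 (SE 0.54, edgeR adjusted p = 0.0320). The log2 fold change of C2 was 0.793 with all values raised to the highest limit. For both genes the PLX+PTX+aPD-L1 libraries differed severalfold from each other but did not overlap PLX+PTX. The subunits of C1q, which starts the classical pathway and in tumours comes chiefly from macrophages, had lower values in PLX+PTX+aPD-L1. C1qa stood at 415 and 219.6 normalised counts, against 538 and 988 (−1.26, SE 0.60), and C1qb at 341 and 165, against 416 and 766 (−1.21, SE 0.60). Neither passed the test. In all, 2 of 5 tested complement genes rose and 0 fell, beside 2.28% and 0% of all tested genes, and the median was −0.20. The 2 above the limit in all 4 libraries, C1qa and C1qb, had a median of −1.23.

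Of the named genes that rose, 3 belong to lymphocytes, and all were at background in PLX+PTX. Zap70, the kinase that relays T cell receptor signals, gave 49 and 27 raw counts in PLX+PTX+aPD-L1, against 15 and 9 in PLX+PTX. Its log2 fold change was 2.68 (SE 0.42, edgeR adjusted p = 0.00369), and it was 3.17-fold higher with PLX+PTX taken at its limits. The log2 fold change of Zap70 was only 0.127 with all values raised to the highest limit, so the size of its rise is uncertain. Cd2, an adhesion receptor of T and NK cells, gave 32 and 17 raw counts, against 7 and 14, and all 4 lay under the detection limit, so no fold is given (edgeR adjusted p = 0.0172). Btla, an inhibitory receptor of B and T cells, gave 27 and 26 raw counts, against 11 and 13, and was above the limit in 1 of the 4 libraries, PLX+PTX+aPD-L1 replicate 2 (edgeR adjusted p = 0.00668). Of these 3, Zap70 alone exceeded the limit in each library of PLX+PTX+aPD-L1.

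The rest of the T cell list lay near background. Of its 17 members on the panel, 1 and 2 were above the limit in PLX+PTX+aPD-L1, against 0 and 4 in PLX+PTX, and 11 were above it in none of the 4 libraries. The summed level was 333 and 485 normalised counts in PLX+PTX+aPD-L1, against 197 and 215 in PLX+PTX. Of 7 tested, 2 rose (Zap70 and Cd2), beside 2.28% of all tested genes. Of the 7, 5 lay above 0, and the median was 0.45, against 0.66 for the probes above the limit in none of the 4 libraries. With the negative controls subtracted, the list's median was −0.30, beside −0.34 over all tested probes in that setting. Cd3g, a chain of the T cell receptor complex, gave 24 and 24 raw counts, against 30 and 17 (log2 fold change 1.16, SE 0.54, edgeR adjusted p = 0.322).

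Cytotoxic genes gave no call. Cd8a, the CD8 co-receptor chain, gave 7 and 5 raw counts in PLX+PTX+aPD-L1, against 9 and 10 in PLX+PTX, and Ifng, the interferon gamma gene, gave 3 and 4, against 5 and 5. Both were under the limit in all 12 libraries and were not tested, so a difference was not detectable at this depth. The granule protease gene Gzmb had 25.2 and 37.6 normalised counts, against 21.8 and 32.2 (log2 fold change 0.16, SE 0.37), and Gzma had 22.6 and 57.8, against 18.04 and 18.3 (1.04, SE 0.51). Of 8 tested members of the cytotoxic lymphocyte list, 6 lay above 0 (median 0.31). The probes above the limit in none of the 4 libraries had a median of 0.66. Of the list's 15 members on the panel, 0 and 1 were above the limit in PLX+PTX+aPD-L1, against 1 and 6 in PLX+PTX. The list's median was −0.52 with negative controls subtracted, beside −0.34 over all tested probes in that setting. The B cell list had 1 tested member, and the lymph node list had 6, of which 1 rose, with a median of 0.83. The only one of these 6 above the limit in all 4 libraries lay at −0.82, and with all values raised to the highest limit the median was 0. The dendritic cell list had 9, of which none rose, with a median of −0.07.

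Genes of the PD-1 pathway itself were at or near background. Cd274, which encodes PD-L1, gave 14 and 23 raw counts in PLX+PTX+aPD-L1, against 29 and 17 in PLX+PTX, and was above the limit in PLX+PTX+aPD-L1 replicate 2 alone of the 4. Its normalised counts, 18.6 and 66.5 against 27.5 and 14.8, overlapped between the groups (log2 fold change 0.89, SE 0.58, edgeR adjusted p = 0.475). Pdcd1, the PD-1 gene, gave 9 and 6 raw counts, against 6 and 10, and Pdcd1lg2, the gene of the second PD-1 ligand, gave 17 and 2, against 11 and 11. Both were under the limit in all 12 libraries. Of 14 tested checkpoint and costimulation genes, Btla rose, and 7 lay above 0 and 7 below (median 0.09). Lgals9, the ligand galectin-9, had 198 and 714 normalised counts, against 1176 and 671 (−1.03, SE 0.56), without passing the test.

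The other genes that rose encode an enzyme of histamine synthesis, a Wnt ligand, a transcription factor, a nucleoside enzyme and a cytokine receptor. Hdc, histidine decarboxylase, gave 92 and 56 raw counts in PLX+PTX+aPD-L1, against 16 and 14 in PLX+PTX (log2 fold change 3.36, SE 0.54, edgeR adjusted p = 0.00369). It was 6.25-fold higher with PLX+PTX taken at its limits, and its log2 fold change was 1.10 with all values raised to the highest limit. Mast cells are a main source of histamine, and Hdc was 1 of 4 mast cell genes tested. Of the other 3, the granule protease gene Cpa3 gave 6 and 2 raw counts, against 10 and 37 (log2 fold change −1.53, SE 0.77), and the tryptase gene Tpsab1 gave 15 and 10, against 22 and 17, under the limit in all 4 libraries (0.40, SE 0.48). Kit, the receptor for stem cell factor, had 222 and 815 normalised counts, against 782 and 546 (−0.37, SE 0.53), and turned to 0.30 without PLX+PTX+aPD-L1 replicate 1. The median of the 4 was 0.02, and none of these 3 passed the test.

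Wnt11, a ligand of non-canonical Wnt signalling, gave 86 and 33 raw counts in PLX+PTX+aPD-L1, against 13 and 11 in PLX+PTX. Its log2 fold change was 3.26 (SE 0.49, edgeR adjusted p = 0.00369), and it was above the limit in none of the other 8 libraries. Wnt11 was 4.64-fold higher with PLX+PTX taken at its limits, and its log2 fold change was 0.673 with all values raised to the highest limit. Wnt5b, also a non-canonical ligand, was well detected and had 346 and 318 normalised counts, against 748 and 557 (−0.97, SE 0.32, edgeR adjusted p = 0.178). Both PLX+PTX+aPD-L1 values of Wnt5b lay below those of the other 10 libraries. Of 14 tested Wnt pathway genes, 1 rose, and 7 lay above 0 and 7 below (median 0.11).

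Sox2, a transcription factor of stem and progenitor cells, had 115 and 124 normalised counts in PLX+PTX+aPD-L1, against 20.9 and 20.9 in PLX+PTX, and at most 19.7 in the other 8 libraries (log2 fold change 2.51, SE 0.34, edgeR adjusted p = 0.00237). Tymp, thymidine phosphorylase, had 99.5 and 133, against 20.9 and 18.3 (2.55, SE 0.34, edgeR adjusted p = 0.00237). In these 2 genes the libraries of each group were close to each other. Both genes lay under the detection limit in PLX+PTX replicate 1. Their log2 fold changes were 0.872 (Sox2) and 0.813 (Tymp) with all values raised to the highest limit. Il6ra, the receptor chain that binds interleukin 6, had 327 and 321 normalised counts, against 62.7 and 76.6, with 54.1 to 146 in the other 8 (2.21, SE 0.48, edgeR adjusted p = 0.0287). Il6ra missed the threshold without either PLX+PTX+aPD-L1 library (edgeR adjusted p = 0.0689 and 0.0723), though its log2 fold change stayed at 2.20 and 2.23. Il6ra and Cxcl12 were the only called genes above the limit in all 4 libraries, and 9 of the 14 were above it in neither PLX+PTX library.

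**Figure D2:**
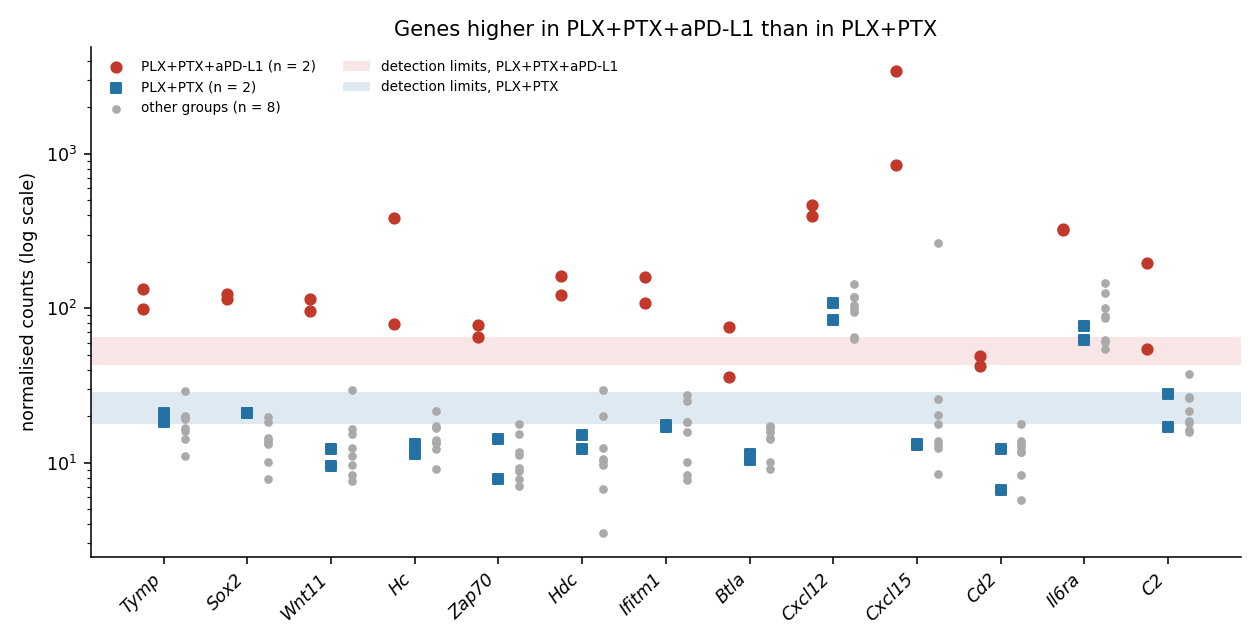
Normalised counts on a log scale of 13 of the 14 genes past the threshold (horizontal axis) in each library of PLX+PTX+aPD-L1 (circles, n = 2), PLX+PTX (squares, n = 2) and the other groups (small points, n = 8); the bands span the detection limits of the libraries of each group. In PLX+PTX+aPD-L1 all 13 lie above the other 10 libraries, while in PLX+PTX most lie at or under the detection limit.

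In 9 of the 14 genes the highest of the other 8 libraries was R replicate 2, the remaining library of low signal, with 128083 endogenous counts. Its normalised detection limit, 50.6, was also the highest of those 8. The share of all tested probes that peaked in R replicate 2 was not counted, so the 9 are not read as particular to these genes. The part of low signal in these rises was not tested as a cause. When the mean of the negative controls was subtracted from each library, 12 genes passed in limma, 10 of them among the 14. The 4 lost were C2, Il6ra, Sox2 and Tymp, all with log2 fold changes above those before subtraction (2.45 for Il6ra to 4.28 for C2). With all values raised to the highest of the 4 limits, 65.5 normalised counts, 9 passed in limma, 7 of them among the 14: Cxcl12, Cxcl15, Hdc, Ifitm1, Sox2, Tymp and Wnt11. In both settings the test changed from edgeR to limma together with the background, so a lost call cannot be assigned to the background alone. With the submitters' processed log2 values none passed, although 124 genes had an unadjusted p under 0.05 in limma.

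Among probes above the limit in all 4 libraries, some had high fold changes that did not pass the test. Cd36, a scavenger receptor that takes up fatty acids, had 555 and 679 normalised counts in PLX+PTX+aPD-L1, against 58.9 and 101 in PLX+PTX (log2 fold change 2.94, SE 0.99, edgeR adjusted p = 0.188). The groups did not overlap, but R replicate 1 also reached 506. Jag1, a ligand of Notch receptors, had 334 and 173, against 47.5 and 49.6 (2.40, SE 0.59, edgeR adjusted p = 0.0614). Tnfrsf1b, a receptor for tumour necrosis factor, had 194 and 124, against 39.9 and 40.0 (2.002, SE 0.50, edgeR adjusted p = 0.0638). The PLX+PTX values of Jag1 and Tnfrsf1b lay under the highest limit of the 4 libraries, 65.5, and with all values raised to it their log2 fold changes were 1.88 and 1.25. Kdr, the endothelial receptor for VEGF, had 167 and 361, against 93.0 and 61.8 (1.76, SE 0.52, edgeR adjusted p = 0.128). For Kdr the raw counts, 126 and 125 against 98 and 71, were already higher in PLX+PTX+aPD-L1. Of 9 tested endothelial genes 7 lay above 0 (median 0.44) and none passed. The 5 above the limit in all 4 libraries had a median of 0.15, and replicate 1 of PLX+PTX+aPD-L1 was below replicate 2 in 9 of 9. The list's median was −0.19 with negative controls subtracted, beside −0.34 over all tested probes in that setting. It ran from −0.46 to 1.04 when 1 library was left out.

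Some further genes had higher raw counts in both PLX+PTX+aPD-L1 libraries without passing. The neutrophil gene S100a9, a calcium-binding alarmin, gave 55 and 39, against 12 and 17 (log2 fold change 2.79, SE 0.76, edgeR adjusted p = 0.0835), and 100.1 normalised counts in PTX replicate 1. The cyclin D2 gene Ccnd2, named after its values were seen, gave 84 and 94, against 20 and 40 (2.80, SE 0.70, edgeR adjusted p = 0.0638). The log2 fold changes of S100a9 and Ccnd2 were 0.471 and 1.41 with all values raised to the highest limit. The neutrophil list had 3 tested members, of which 1 lay above 0.

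Interferon-induced genes stood lower in PLX+PTX+aPD-L1, with a wide spread inside both groups and with no fall past the test. These genes are switched on when type I interferon acts on its receptor, through transcription factors that bind the interferon-stimulated response element, and many encode proteins that block viruses. The upstream sequences of 4 of them show where the core of this element lies. They are printed from RefSeq promoters of build GRCm38.p6, as 150 bases before the transcription start on the strand of the gene, with matches to the core (GAAA, any 2 bases, GAAA, on either strand) in capitals.
Isg15 (chr4:156200819-156200968, minus strand): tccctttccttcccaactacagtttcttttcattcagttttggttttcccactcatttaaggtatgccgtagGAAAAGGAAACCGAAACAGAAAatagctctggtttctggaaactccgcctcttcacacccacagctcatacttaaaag
Ifit1 (chr19:34640739-34640888, plus strand): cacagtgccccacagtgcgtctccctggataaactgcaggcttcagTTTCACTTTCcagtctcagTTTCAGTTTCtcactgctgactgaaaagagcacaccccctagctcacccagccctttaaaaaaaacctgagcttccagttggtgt
Oas1a (chr5:120907526-120907675, minus strand): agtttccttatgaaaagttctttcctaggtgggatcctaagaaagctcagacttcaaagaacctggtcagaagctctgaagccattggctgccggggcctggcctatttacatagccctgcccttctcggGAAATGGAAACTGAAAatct
Ifitm1 (chr7:140967926-140968075, plus strand): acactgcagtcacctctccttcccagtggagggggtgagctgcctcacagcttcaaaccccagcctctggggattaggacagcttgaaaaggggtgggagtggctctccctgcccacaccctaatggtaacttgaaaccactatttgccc
Isg15 holds 3 overlapping matches, Ifit1 holds 2 that lie apart on the opposite strand, and Oas1a holds 2 that overlap. Ifitm1, the only list member that rose, holds 0. Irf7 and Irf9, list members with log2 fold changes of −2.36 and −1.10, also held 0 in their promoters of 300 bases. Whether the core goes with the direction of change was not tested. In promoters of 300 bases, 10 of the 17 list genes with a promoter in the table (58.8%) held the core, against 52 of 547 genes of the panel (9.51%) and 1079 of 27025 genes in the table (3.99%). Of the 14 genes that rose, 11 had a promoter in the table and 0 held the core, where the panel's share of 9.51% would give few. A match is a description of these letters and not a measured site.

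Isg15, a ubiquitin-like modifier, had 87.6 and 355 normalised counts in PLX+PTX+aPD-L1, against 1136.5 and 441 in PLX+PTX, and 185 to 768 in the other 8 libraries (log2 fold change −1.86, SE 0.78, edgeR adjusted p = 0.267). Irf7, the transcription factor that amplifies the interferon response, had 53.1 and 286, against 1276 and 414 (−2.36, SE 0.85, edgeR adjusted p = 0.202). Oas1a, a sensor of double-stranded RNA, had 53.1 and 159, against 681 and 271 (−2.21, SE 0.74, edgeR adjusted p = 0.185). In all 3 the groups did not overlap, beside 21.3% of all probes with PLX+PTX+aPD-L1 lower. Yet the libraries of a group differed severalfold, replicate 1 being the low one in PLX+PTX+aPD-L1 and the high one in PLX+PTX. Ifit1, which binds viral RNA and is named after its values were seen, had 27.9 and 113, against 378 and 138 (−1.95, SE 0.79). Rsad2, the antiviral enzyme viperin, had 34.5 and 57.8, under the limit in both, against 265 and 64.4 (−1.87, SE 0.98). Oas2 had 31.9 and 46.2, also under the limit in both, against 211 and 39.2, and the groups overlapped (−1.71, SE 0.87). The log2 fold change of Oas2 ran from −2.46 to −0.038 when 1 library was left out. Irf9, a transcription factor of the interferon response, had 228 and 364, against 826 and 433 (−1.10, SE 0.35, edgeR adjusted p = 0.160), and both PLX+PTX+aPD-L1 values lay under those of the other 10 libraries.

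Over the 21 interferon-induced genes tested, 17 lay below 0 with a median of −0.69, beside 313 of 615 (50.9%) and −0.02 over all probes, and none fell past the threshold. Of the 14 above the limit in all 4 libraries, 13 lay below 0 (median −0.86). Both PLX+PTX+aPD-L1 values lay below both PLX+PTX values in 10 of 21, beside 21.3% of all probes. The list was also spread within the groups. In PLX+PTX+aPD-L1, replicate 1 was below replicate 2 in 21 of 21 genes (median log2 difference −1.02), beside 465 of all 615 tested probes (−0.47). In PLX+PTX, replicate 1 was above replicate 2 in 19 of 21 genes (1.10), beside 345 of 615 (0.079). The summed level was 4085 and 8278 normalised counts in PLX+PTX+aPD-L1, against 14169 and 8958 in PLX+PTX. Replicate 2 of each group thus stood close together, and the summed levels of the groups differed chiefly between the libraries numbered 1. The median was −0.18 without PLX+PTX replicate 1 and −1.46 without PLX+PTX+aPD-L1 replicate 2. Ifitm1, a membrane protein that restricts virus entry, went against the list. It gave 81 and 55 raw counts in PLX+PTX+aPD-L1, against 18 and 20 in PLX+PTX (log2 fold change 2.92, SE 0.49, edgeR adjusted p = 0.00478). Ifitm1 was 5.81-fold higher with PLX+PTX taken at its limits, and its log2 fold change was 0.998 with all values raised to the highest limit.

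**Figure D3:**
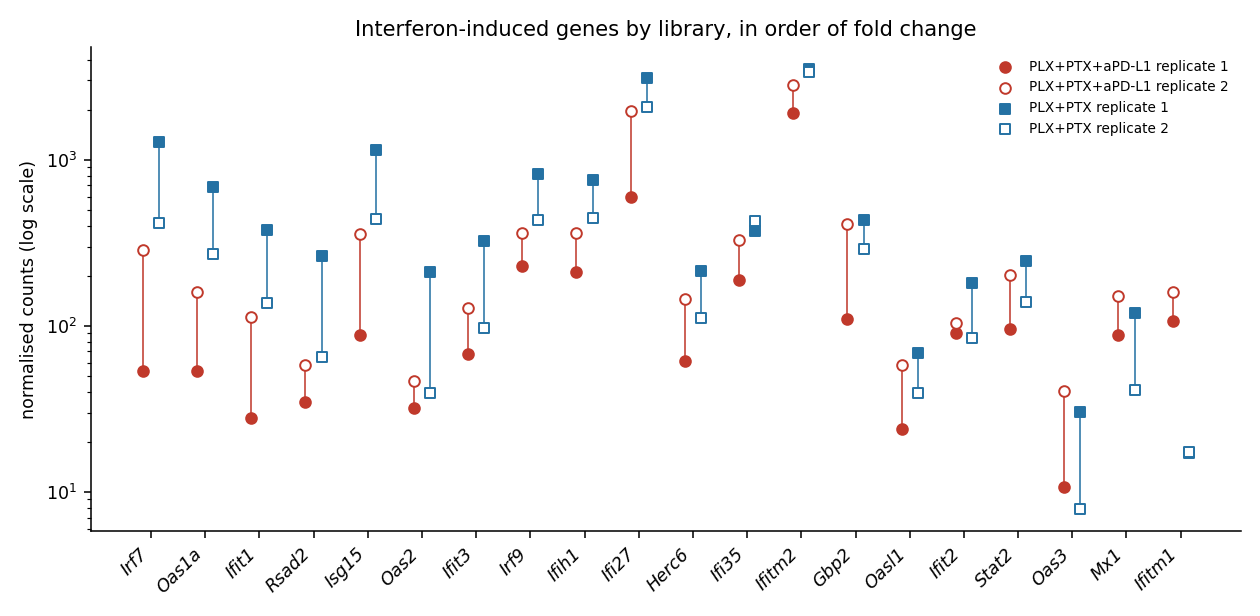
Normalised counts on a log scale of 20 of the 21 interferon-induced genes in replicate 1 (filled) and replicate 2 (open) of PLX+PTX+aPD-L1 (circles) and PLX+PTX (squares), in order of log2 fold change from Irf7 at −2.36 to Ifitm1 at 2.92. Over all 21 genes of the list, replicate 1 was the lower of the PLX+PTX+aPD-L1 libraries in 21, beside 465 of 615 tested probes, and the higher of the PLX+PTX libraries in 19, beside 345 of 615.

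Macrophage and monocyte genes were mostly lower in PLX+PTX+aPD-L1 than in PLX+PTX, again without a gene past the test. Apoe, a lipid carrier abundant in tumour macrophages, had 2467 and 2019.7 normalised counts in PLX+PTX+aPD-L1, against 4501 and 8275 in PLX+PTX (log2 fold change −1.51, SE 0.53, edgeR adjusted p = 0.196). Cx3cr1, the fractalkine receptor of monocytes, had 126 and 57.8, against 184 and 267 (−1.26, SE 0.43, edgeR adjusted p = 0.194). Fcgr1, a high-affinity IgG receptor, had 39.8 and 23.1, under the limit in both, against 62.7 and 75.7 (−1.08, SE 0.54). In these 3 genes the groups did not overlap, beside 21.3% of all probes with PLX+PTX+aPD-L1 lower. Csf1r, the receptor targeted by the inhibitor given to both groups, had 111 and 127, against 134 and 195, a smaller difference (−0.47, SE 0.48, edgeR adjusted p = 0.651). Its ligand gene Csf1 had 115 and 257, against 207 and 138 (0.09, SE 0.40), and the groups overlapped.

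Of 18 tested macrophage and monocyte genes 15 lay below 0, with a median of −0.64, and 0 passed the test. Both PLX+PTX+aPD-L1 values lay below both PLX+PTX values in 11 of them, beside 21.3% of all probes. The summed level of the 20 members on the panel was 4671 and 4548 normalised counts in PLX+PTX+aPD-L1, against 8158 and 13251 in PLX+PTX. Apoe alone gave 2467 and 2019.7 of these, against 4501 and 8275, so the sum largely follows Apoe. The 9 members above the limit in all 4 libraries had a median of −0.79, and the list's median stayed below 0 under all 18 alternative settings (−1.22 to −0.19). In pieces of whole tumour, fewer cells of a type and less RNA per cell cannot be told apart.

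Antigen presentation genes lay in both directions, with more of them below 0. The class I loading protein gene Tapbp had 365 and 448 normalised counts in PLX+PTX+aPD-L1, against 801 and 626 in PLX+PTX (log2 fold change −0.81, SE 0.28, edgeR adjusted p = 0.194), and lay below the other 10 libraries in both. The peptide transporter gene Tap1 had 113 and 165, against 220.3 and 198 (−0.60, SE 0.29). Nlrc5, an activator of class I genes, had 83.6 and 89.6, against 37.0 and 19.2 (1.62, SE 0.61, edgeR adjusted p = 0.216). The log2 fold change of Nlrc5 was 0.403 with all values raised to the highest limit. Of 11 tested class I presentation genes 4 lay above 0 and 7 below (median −0.32), and none passed. Of the 9 above the limit in all 4 libraries, 2 lay above 0 and 7 below (median −0.39). For class II, H2-Aa had 215 and 1162, against 1207 and 1352 (−0.91, SE 0.77), and the invariant chain gene Cd74 had 538 and 2034, against 1745 and 1853 (−0.49, SE 0.58). PLX+PTX+aPD-L1 replicate 1 was the low library for both. Of 5 tested class II genes 4 lay below 0 (median −0.49), among them all 3 that were above the limit in all 4 libraries. Without PLX+PTX+aPD-L1 replicate 1 the median was 0.18.

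No gene of proliferation or of the epithelium passed the test. Mki67, a marker of dividing cells, had 1569 and 1052 normalised counts in PLX+PTX+aPD-L1, against 1821 and 2111 in PLX+PTX (log2 fold change −0.58, SE 0.30, edgeR adjusted p = 0.382), and Anln, a protein of the cleavage furrow, had 143 and 72.2, against 188 and 201 (−0.82, SE 0.37). Of 17 tested proliferation genes 13 lay below 0 (median −0.43). Serpinb5, the epithelial serpin maspin, had 110.2 and 121, against 369 and 263, and at least 130.0 in the other 8 libraries (−1.45, SE 0.39, edgeR adjusted p = 0.0831). The laminin gene Lamb3 had 67.7 and 113, against 163 and 162 (−0.88, SE 0.33), while Epcam gave −0.34 (SE 0.27). Of 7 tested epithelial genes 6 lay below 0 (median −0.12). Scaling on the total count, which moved the median of all probes to 0.40, gave 0.04 for the proliferation list and 0.30 for the epithelial list.

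The lipoprotein lipase inhibitor gene Angptl4 had 50.4 and 101 normalised counts in PLX+PTX+aPD-L1, against 137 and 197 in PLX+PTX (log2 fold change −1.18, SE 0.50). F2rl1, a receptor cleaved by proteases, had 53.1 and 95.4, against 216 and 102 (−1.13, SE 0.48). The glycolytic enzyme gene Pkm had 199 and 208, against 348 and 294 (−0.66, SE 0.26), and P4ha2, a collagen hydroxylase, had 146 and 153, against 97.8 and 46.1 (1.06, SE 0.55). None of these 4 passed, and in each the groups did not overlap. Of all tested probes, 23.1% did not overlap with PLX+PTX+aPD-L1 higher, and 21.3% with it lower. The 4 were named for a large fall or a small p, which favours such genes. Of 19 hypoxia and glycolysis genes 12 lay below 0 (median −0.39), and of 15 DNA repair genes 9 lay below 0 (median −0.10), with the mismatch repair gene Pms2 at 0.81 (SE 0.30).

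Stromal genes went both ways. Pdgfrb, a receptor of fibroblasts and pericytes, had 66.4 and 144 normalised counts in PLX+PTX+aPD-L1, against 32.3 and 51.4 in PLX+PTX (log2 fold change 1.30, SE 0.45). The log2 fold change of Pdgfrb was 0.581 with all values raised to the highest limit. Twist1, a transcription factor of mesenchymal cells, had 17.3 and 14.4, under the limit in both, against 32.3 and 51.4 (−1.37, SE 0.44), and the collagenase gene Mmp13 had 22.6 and 20.2, also under the limit, against 51.3 and 40.0 (−1.07, SE 0.70). Of 13 tested fibroblast and matrix genes 7 lay above 0 and 6 below (median 0.00), and none passed.

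**Figure D4:**
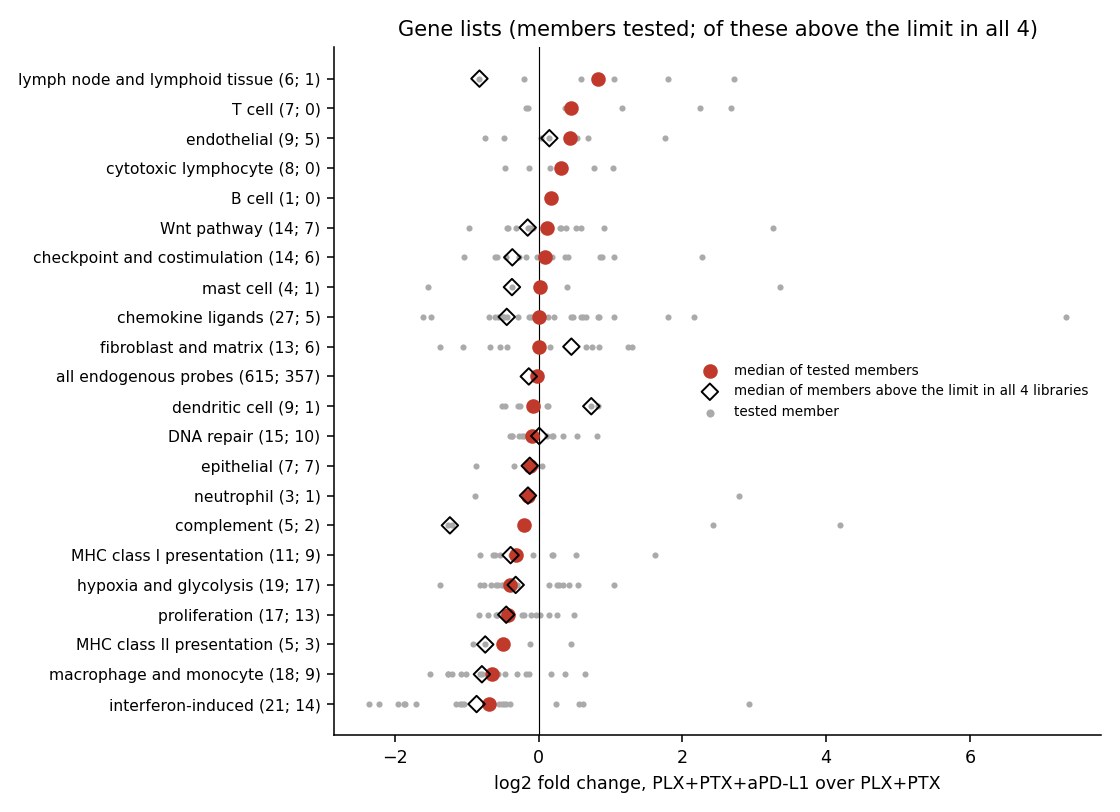
Log2 fold change, PLX+PTX+aPD-L1 over PLX+PTX (horizontal axis), of the tested members of each gene list (grey points), with the median of the tested members (filled circle) and of those above the detection limit in all 4 libraries (open diamond); numbers beside each name count these members. The interferon-induced list has the lowest median at −0.69 and the lymph node list the highest at 0.83, beside −0.02 over all 615 probes.

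The libraries of PLX+PTX+aPD-L1 differed more from each other than those of PLX+PTX. Over the 357 probes above the limit in all 4 libraries, the SD of the log2 difference between replicate 1 and replicate 2 was 0.777 in PLX+PTX+aPD-L1, against 0.538 in PLX+PTX. The difference exceeded 2-fold for 75 probes (21.0%) in PLX+PTX+aPD-L1 and for 23 (6.44%) in PLX+PTX. Spp1, the gene of the phosphoprotein osteopontin, had 4281 and 39921 normalised counts in PLX+PTX+aPD-L1, against 48347 and 36696 in PLX+PTX. It took 2.29% of the endogenous counts in PLX+PTX+aPD-L1 replicate 1 and 14.0% in replicate 2, against 14.9% and 12.8% in PLX+PTX, so replicate 1 was the library that stood apart. Its log2 fold change between the groups was −0.94 (SE 0.78, edgeR adjusted p = 0.568), and it was −0.09 without replicate 1 of PLX+PTX+aPD-L1 and −3.31 without replicate 2.

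Other genes with large gaps between the PLX+PTX+aPD-L1 libraries were chosen for that gap. The fibrillar collagen gene Col11a1 had 159 and 1404 normalised counts in PLX+PTX+aPD-L1, against 1846 and 1367 in PLX+PTX. The glycolytic enzyme genes Aldoa, with 3209 and 14355 against 16189 and 13449.5, and Ldha, with 2973 and 12595 against 10162 and 9225, had the same shape. The lipid antigen presenting gene Cd1d1, with 538 and 104 against 191 and 201, and the arginase gene Arg1, with 619 and 142 against 156 and 213, were instead highest in PLX+PTX+aPD-L1 replicate 1. In each of these the difference inside PLX+PTX+aPD-L1 was larger than the difference inside PLX+PTX.

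**Figure D5:**
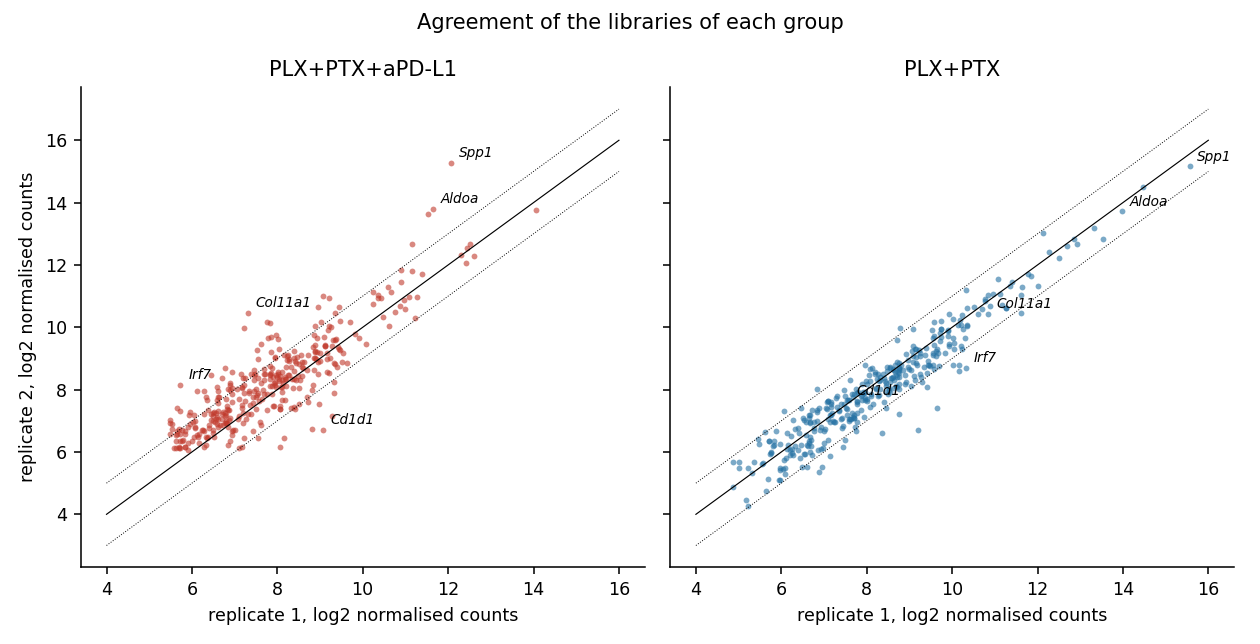
Log2 normalised counts in replicate 2 (vertical axis) against replicate 1 (horizontal axis) of the 357 probes above the detection limit in all 4 libraries, for PLX+PTX+aPD-L1 (left) and PLX+PTX (right), with the line of equality and dotted lines at 2-fold. Beyond the dotted lines lie 75 probes in PLX+PTX+aPD-L1, with Spp1 and Col11a1 among those low in replicate 1, and 23 in PLX+PTX.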

How the data were processed

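RNA from snap-frozen tumour pieces was converted to cDNA, amplified for the panel's targets and counted on the nCounter platform, per the labels' protocols. The authors deposited whole-number counts for 784 probes (750 endogenous, 20 housekeeping, 6 positive and 8 negative controls, per the file headers) and a processed table of log2 values. How these log2 values were made is not stated in the labels or headers; DESeq2 and limma are named, without a role, in the submitters' processing notes.

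Counts were scaled by the geometric mean of the 20 housekeeping probes of each library. Endogenous probes with 20 or more counts in at least 2 libraries were tested (615; 135 were left out). All 12 libraries entered 1 fit of 5 group means (edgeR 4.0.16 in R 4.3.3, quasi-likelihood, 7 residual degrees of freedom), and the contrast was PLX+PTX+aPD-L1 minus PLX+PTX, with a Benjamini-Hochberg threshold of 0.05. Alternatives changed the scaling, the tool (DESeq2 1.42.0, limma 3.58.1), the filter, the background and the libraries. The procedure was tested on simulated counts.

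Replicates were numbered in order of deposition and pair nothing. No libraries of a group matched within sampling noise (lowest chi-square per degree of freedom 13.2). All 770 endogenous and housekeeping names were found in the RefSeq table of GRCm38.p6, 764 under the same symbol and 6 as synonyms.

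The comparison, the 21 gene lists and the fixed genes were chosen with earlier results of these data known. Named genes were those past the threshold, the 10 largest rises and 10 largest falls among probes above the detection limit in all 4 libraries, the 6 largest falls among those above it in both PLX+PTX libraries only, the 4 members of each list with the smallest p (or fewer), and 10 fixed genes, of which those that matter are printed. Of the genes past the threshold, and of the interferon list, 1 each is not reported here. The lists covered macrophages and monocytes, dendritic cells, neutrophils, mast cells, T cells, cytotoxic lymphocytes, B cells, lymph node, epithelium, fibroblasts and matrix, endothelium, interferon, MHC class I and II presentation, checkpoints, chemokines, complement, proliferation, DNA repair, hypoxia and glycolysis, and Wnt.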

Additional observations from a re-analysis of the deposited data

How the results depend on the processing

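The number of genes past the threshold was 14 (14 higher, 0 lower). It was 21 (20 and 1) with TMM factors, 17 (16 and 1) with DESeq2 size factors, 43 (43 and 0) with scaling on the total count, which moved the median of all genes to 0.40, and 26 (23 and 3) with DESeq2. limma-voom gave 14 (13 and 1), and the deposited log2 values gave 0 in limma (smallest adjusted p = 0.0786). Restricted to probes that exceeded the limit in at least 10 libraries, 0 of 402 passed edgeR's test, with 52 at an unadjusted p under 0.05. In edgeR, probes above the limit in both libraries of either group gave 13 (12 and 1) of 464, and the 4 libraries alone 24 (22 and 2). In limma on log2 values, the subtracted negative controls gave 12 (11 and 1) and the common floor 9 (8 and 1). Leaving out 1 library gave 0 to 18 in all, 0 to 16 higher and 0 to 2 lower; Spp1 and Crabp2 were the 2 that fell without PLX+PTX+aPD-L1 replicate 2, where the lone library is assumed to vary like the other groups. Of 1330 values of 76 named genes under the alternatives, 1216 kept direction and call, and 56 kept direction and lost the call. A further 42 gained it and 16 turned, none of these 16 past the threshold. Most of the 76 genes had no call to lose. Each of the 14 genes past the threshold kept its call in 10 to 14 of the 16 to 18 alternatives that gave it an adjusted p. Csf1 turned to −0.024 with limma-voom, −0.17 with the deposited values and −0.087 with negative controls subtracted. Gzmb turned to −1.30 and Tpsab1 to −0.50 with negative controls subtracted, and Epcam to 0.092 with total-count scaling. With 1 library left out, Csf1 ran from −0.58 to 0.58, Cd274 from −0.18 to 1.65, Gzmb from −0.10 to 0.47, Kit from −1.58 to 0.30, Cd74 from −1.74 to 0.18, Ldha from −1.71 to 0.38, Cd1d1 from −0.91 to 1.46 and Arg1 from −0.38 to 1.74. No paired analysis was possible because the labels give no replicate numbers. Low signal limits the PLX+PTX+aPD-L1 libraries, where 406 and 408 of 750 probes lay above the detection limit, against 449 and 540 in PLX+PTX.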

Other observations

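Among the 27 tested genes with lower normalised counts in both PLX+PTX+aPD-L1 libraries than in each of the other 10 libraries were some that no list held, and none of the 27 passed edgeR's test. Prlr, the prolactin receptor, had 388 and 416 in PLX+PTX+aPD-L1, against 746 and 799 in PLX+PTX (log2 fold change −0.94, SE 0.45). Srebf1, a transcription factor of lipid synthesis, had 2694 and 3320.0, against 4968 and 5457 (−0.79, SE 0.38), and the growth factor gene Tgfb2 had 268 and 168, against 355 and 424 (−0.83, SE 0.43). These genes were chosen after their values were seen.

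Among the 29 tested genes with higher raw counts in both PLX+PTX+aPD-L1 libraries, 15 did not pass the test. Id4, an inhibitor of helix-loop-helix transcription factors, gave 40 and 27 raw counts in PLX+PTX+aPD-L1, against 7 and 19 in PLX+PTX (log2 fold change 2.45, SE 0.73, edgeR adjusted p = 0.128). Il34, the other ligand of the receptor CSF1R, gave 47 and 30, against 26 and 26 (1.63, SE 0.49, edgeR adjusted p = 0.128). Zeb1, a repressor of epithelial genes, gave 34 and 44, against 25 and 30 (1.73, SE 0.60, edgeR adjusted p = 0.194). The log2 fold changes of Id4, Il34 and Zeb1 were 0.127, 0.203 and 0.479 with all values raised to the highest limit. All 3 were chosen after their values were seen.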
